A study of Mus musculus with 2 samples.

Results

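The genes of the respiratory chain and ATP synthase were followed through mouse bone marrow, over cell classes and along erythroid maturation. Members were taken by symbol: those beginning with Ndufa, Ndufb, Ndufc, Ndufs, Ndufv, Uqcr, Atp5 or Cox4 to Cox8, and every gene with the mt- prefix, provided that 20 or more unique molecular identifiers (UMIs, tags that count captured RNA molecules) were summed over both matrices. Of 27998 genes in the tables, 101 carried such a symbol and 96 reached the limit, 83 of them nuclear and 13 encoded by mitochondrial DNA. The 5 that did not were Cox4i2 (9 UMIs), Cox8c (3 UMIs), Cox7b2, Cox8b and Ndufa4l2 (0 UMIs each). By product, 51 members belonged to complex I, 9 to complex III, 18 to complex IV and 18 to complex V. Not every member encodes a subunit: 87 do, 7 (Ndufaf1 to Ndufaf7) encode assembly factors of complex I, and Atp5s and Atp5sl encode 2 other products.

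Both libraries came from the marrow of naive mice on the C57BL/6 background, and each pooled 3 mice with 10000 cells loaded. The Car1-GFP library held CD45+ cells that express GFP in a Car1-GFP reporter line, in which the fluorescent protein reports on Car1, the carbonic anhydrase gene of early erythroid cells. The marrow library held CD45+ cells without CD3 or Ly6G from C57BL/6 mice. With 1 library a group there was no replicate, so no test was made; intervals are exact 95% binomial intervals that cover counting error only, and the reporter line, the sort and the sequencing depth cannot be told apart from the kind of cell between the libraries.

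Complexes I, III and IV pass electrons from nutrients to oxygen and pump protons across the inner mitochondrial membrane, and complex V, the ATP synthase, uses that gradient to make ATP. Mitochondrial DNA encodes a core of the subunits, and the nucleus encodes the others, so the complexes need products of both genomes. Several small subunits of complexes IV and V exist as paralogs, some of them known as forms of heart and skeletal muscle or of testis. Erythroid precursors need mitochondria for heme synthesis and lose them at the end of maturation, and mature neutrophils hold few mitochondria.

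The Car1-GFP library kept 2400 cells with 42795219 UMIs, and the marrow library kept 6268 cells with 8303633 UMIs. The median cell held 15512.5 UMIs in the Car1-GFP library and 1031 in the marrow library, a gap of 15.05-fold, and 14 barcodes occurred in both. Levels are given in CPM, the UMIs of a gene scaled to the total of its library, class or bin. A count of 3, the limit that a count of 0 allows, equals 0.0701 CPM over all Car1-GFP cells and 0.361 CPM over all marrow cells. Car1 itself stood at 594 CPM in Car1-GFP cells, against 102 CPM in the marrow library, and the erythroid factor gene Klf1 at 344 CPM in Car1-GFP cells, against 31.6 CPM in the marrow library. Ptprc, the CD45 gene on which both were sorted, was at 12.97 CPM in Car1-GFP cells, against 302.8 CPM in the marrow library. S100a8, an abundant neutrophil transcript, was at 69.4 CPM in Car1-GFP cells, against 67648 CPM in the marrow library.

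Marrow cells were clustered without the members, and clusters were named from marker genes. The classes with 50 or more cells were erythroid-like (269), stem and multipotent progenitor-like (428), granulocyte-monocyte progenitor-like (808), neutrophil-like (1990), monocyte-like (1715), conventional dendritic-like (150), plasmacytoid dendritic-like (563), basophil or mast-like (89) and NK and innate lymphoid-like (136). The 2-fold excess over other marrow cells was reached by 17 of 18 erythroid markers, 9 of 10 stem markers and 6 of 7 granulocyte-monocyte progenitor markers, and by every measured marker of the other classes. The names were rebuilt from the counts, and neutrophil-like cells were the most numerous class although Ly6G+ cells were sorted out.

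Paralog pairs whose balance differed between cell classes are shown first by the 250 bases upstream of their start, which places the sequence beside the shares reported below. The RefSeq windows (GRCm38.p6, all 4 on the minus strand) lie at chr7:4753095-4753344 for Cox6b2, chr7:30626115-30626364 for Cox6b1, chr11:96075632-96075881 for Atp5g1 and chr15:102671048-102671297 for Atp5g2. They are written 5′ to 3′ in the direction of transcription, with capitals for any match on either strand to a short string of 6 kinds. CCGGAAG stood for ETS factors such as GABP, GCGCATG for the factor NRF1, AAGATGG for the factor YY1 and AGATAA for the GATA factors. CACCTG was the first of the E-boxes searched and CAGCTG the second.
Cox6b2: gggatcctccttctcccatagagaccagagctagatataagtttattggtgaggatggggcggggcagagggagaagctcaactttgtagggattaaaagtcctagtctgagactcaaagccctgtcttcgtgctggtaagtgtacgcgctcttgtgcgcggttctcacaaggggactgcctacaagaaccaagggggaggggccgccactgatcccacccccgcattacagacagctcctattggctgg
Cox6b1: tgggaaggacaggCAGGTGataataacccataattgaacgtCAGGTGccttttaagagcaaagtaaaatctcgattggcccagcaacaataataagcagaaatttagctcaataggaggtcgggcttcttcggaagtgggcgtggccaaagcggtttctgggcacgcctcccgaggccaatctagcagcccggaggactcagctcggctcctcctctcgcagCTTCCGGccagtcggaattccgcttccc
Atp5g1: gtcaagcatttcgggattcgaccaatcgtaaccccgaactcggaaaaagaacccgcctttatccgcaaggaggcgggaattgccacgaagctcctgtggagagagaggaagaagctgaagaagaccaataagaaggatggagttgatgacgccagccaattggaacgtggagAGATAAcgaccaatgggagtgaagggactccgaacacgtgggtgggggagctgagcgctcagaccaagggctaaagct
Atp5g2: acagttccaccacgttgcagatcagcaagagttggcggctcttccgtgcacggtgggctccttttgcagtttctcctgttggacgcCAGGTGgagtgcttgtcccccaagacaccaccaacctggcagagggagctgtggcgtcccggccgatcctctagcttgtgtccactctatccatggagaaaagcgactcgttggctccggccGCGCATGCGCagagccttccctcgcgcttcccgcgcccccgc
The Cox6b2 window held none of these strings. The window of Cox6b1, its partner, held the ETS string and the CACCTG E-box in 2 places. Atp5g1 had the GATA string, and Atp5g2 had a CACCTG E-box and the NRF1 string on both strands, overlapping. The ETS string was in 15.6% of the 77 windows of the 71 nuclear members that could be matched, against 6.91% of 32851 windows of all genes, and the NRF1 string in 12.99% of the members' windows, against 3.24% of all. The GATA string was in 7.79% of the members' windows, against 9.99% of all, and the YY1 string in 2.60%, against 4.49% of all. CACCTG was in 18.2% of the members' windows, against 17.2% of all, and CAGCTG in 6.49%, against 13% of all. A match is a string of letters and not a site shown to be bound, and a window without one says nothing about the factor.

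Neutrophil-like cells stood at the low end of the marrow for both genomes. Nuclear members together made up 1.79% of UMIs in neutrophil-like cells (95% interval 1.77 to 1.81), and mitochondrially encoded members 1.17%. In the other classes nuclear members ran between 2.53% in conventional dendritic-like cells and 3.36% in erythroid-like cells, with granulocyte-monocyte progenitor-like cells at 3.32% and monocyte-like cells at 3.10%. The order of neighbours at the top was narrow: the erythroid-like interval (3.32 to 3.40) overlapped that of the granulocyte-monocyte progenitor-like cells (3.29 to 3.35). Mitochondrially encoded members were highest in plasmacytoid dendritic-like cells (3.15%), followed by granulocyte-monocyte progenitor-like (2.83%), erythroid-like (2.76%), basophil or mast-like (2.62%) and stem-like cells (2.58%).

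The balance of the 2 genomes was highest in plasmacytoid dendritic-like and lowest in neutrophil-like cells, the ends of the order in mitochondrial share too. UMIs of mitochondrially encoded members per UMI of nuclear members were 1.12 in plasmacytoid dendritic-like cells, 1.01 in stem-like cells, 0.975 in basophil or mast-like cells and 0.884 in NK and innate lymphoid-like cells. They were 0.851 in granulocyte-monocyte progenitor-like cells, 0.821 in erythroid-like cells, 0.727 in monocyte-like cells, 0.712 in conventional dendritic-like cells and 0.654 in neutrophil-like cells. Below and above the class's median of UMIs, the ratio was 1.24 and 1.04 in plasmacytoid dendritic-like and 1.18 and 0.935 in stem-like cells. It fell too in basophil or mast-like (1.04, 0.943), NK and innate lymphoid-like (0.940, 0.855), granulocyte-monocyte progenitor-like (1.03, 0.785) and erythroid-like cells (0.983, 0.774). It rose in monocyte-like (0.699, 0.739), conventional dendritic-like (0.653, 0.746) and neutrophil-like cells (0.619, 0.669). The part of depth was not tested. The 3 plasmacytoid dendritic clusters had 3.39, 2.76 and 2.30% mitochondrially encoded UMIs, each above the 1.37, 1.05 and 0.809% of the 3 neutrophil clusters. Mitochondrial per nuclear UMIs in the plasmacytoid clusters were 1.19, 0.939 and 1.10, so the second of them lay below 1 and apart from the class value.

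In neutrophil-like cells, 48 of 96 members were at least 2-fold lower than in the other marrow cells and 0 were higher; of all measured genes 45.9% were lower and 4.21% higher, so the share of members was near the background. The members' median log2 ratio was -1.002, beside -0.90 over all genes. Mitochondrially encoded genes made up 12 of the 48, from mt-Co2 (695 CPM in neutrophil-like cells, log2 ratio -1.02) to mt-Nd2 (108 CPM, log2 ratio -2.08), with mt-Co1, a catalytic subunit of complex IV, the exception at 4181 CPM and -0.73. Complex I assembly factors were lower as a group, at 0.322-fold for their sum, and Ndufaf4 was at 5.6 CPM in neutrophil-like cells (log2 ratio -3.09). By complex, the summed nuclear subunits were 0.643-fold for complex I, 0.504-fold for complex III, 0.577-fold for complex IV and 0.555-fold for complex V. With ribosomal protein and globin UMIs left out of the total, 73 members were lower, and 60.2% of all genes were too. Ribosomal protein genes took 6.65% of UMIs in neutrophil-like cells and 20.3% in the whole marrow library. The 2 members with log2 ratios above 0 were Ndufv3, an accessory subunit, at 0.34, and Ndufb7 at 0.09, the second with an interval that includes 0; Atp5j came next at -0.13.

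Cox6a2 encodes the form of subunit 6a known from heart and skeletal muscle, and in this marrow its level was highest in plasmacytoid dendritic-like cells. The gene lies at chr7:128205435-128206387 on the minus strand (mm10). It was at 1363 CPM in plasmacytoid dendritic-like cells and 22.5 CPM in all other marrow cells, a log2 ratio of 5.92 (5.68 to 6.17). Elsewhere it was at 80.3 CPM in NK and innate lymphoid-like, 69.4 in stem-like, 25.4 in monocyte-like, 20.5 in conventional dendritic-like, 18.5 in erythroid-like, 14.9 in granulocyte-monocyte progenitor-like and 13.4 in neutrophil-like cells, and no UMI was seen in basophil or mast-like cells. Plasmacytoid dendritic-like cells held 703 of the 878 Cox6a2 UMIs of the marrow library. A low ratio of another class over the remaining marrow thus mostly reflects these cells. The erythroid-like, granulocyte-monocyte progenitor-like, monocyte-like and neutrophil-like levels were within 2-fold of the 22.5 CPM. The general form, Cox6a1, stood at 630 CPM in plasmacytoid dendritic-like cells and between 502 and 996 CPM in the other 8 classes.

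As a share of the UMIs of both 6a genes, Cox6a2 made up 68.4% (65.4 to 71.2; 703 of 1028 UMIs) in plasmacytoid dendritic-like cells. The share was 11.9% in NK and innate lymphoid-like cells, 11.7% in stem-like cells and 1.82 to 3.00% in the erythroid-like, granulocyte-monocyte progenitor-like, neutrophil-like, conventional dendritic-like and monocyte-like cells. The 3 plasmacytoid clusters stood at 74.1, 46.6 and 60.9%. With every cell thinned to 500 UMIs, 42.8% of plasmacytoid dendritic-like cells held a Cox6a2 UMI (55.1% before thinning, median 782 UMIs), against 0.854% of neutrophil-like cells (1.56% before thinning, median 1015 UMIs). Stem-like cells were at 4.44%, and erythroid-like cells at 0.743%, close to the neutrophil-like share. In cells with at least 1000 UMIs the share of 6a UMIs was 54.2%. The Car1-GFP library held 3 Cox6a2 UMIs among 29249 of the pair.

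Cox6b2, the subunit 6b form known from testis, was highest in erythroid cells. It was at 262 CPM in erythroid-like cells and 43.5 CPM in the other marrow cells (log2 ratio 2.59, 2.33 to 2.84), and at 368 CPM in Car1-GFP cells, against 64.8 CPM in the marrow library (log2 ratio 2.50, 2.38 to 2.63). Its partner Cox6b1 stood at 887 CPM in erythroid-like cells, within the 539 to 987 CPM of the other classes. Without the sub-clustering that split a mixed cluster, the erythroid-like log2 ratio was 1.41.

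Cox6b2 made up 31.8% of 6b UMIs (31.3 to 32.2) in the Car1-GFP library and 7.68% in the marrow library. Within the marrow it was 22.8% (20.1 to 25.6) in erythroid-like cells, 12.8% in stem-like cells and 11.6% in basophil or mast-like cells. The remaining 6 classes lay between 3.53% in plasmacytoid dendritic-like and 5.54% in granulocyte-monocyte progenitor-like cells. The order thus put the Car1-GFP library above marrow erythroid-like cells with no overlap of intervals, and the cells of those groups differ in depth.

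Subunit c of the ATP synthase, which forms the turning ring, has 3 genes with the same mature product, and Atp5g1 had the highest ratio of them in erythroid-like cells, ahead of Atp5g3 (log2 1.06). It was at 1232 CPM in erythroid-like cells and 374 CPM in other marrow cells (log2 ratio 1.72, 1.61 to 1.83; 1.11 without the sub-clustering). Atp5g1 made up 55.1% of subunit c UMIs in erythroid-like cells, 52.4% in the Car1-GFP library, 46.7% in granulocyte-monocyte progenitor-like, 37.8% in stem-like and 30.8% in neutrophil-like cells. Atp5g2 made up 20.5% in erythroid-like and 28.8% in Car1-GFP cells, against 36.0% in neutrophil-like cells. Atp5g3 took 24.4% in erythroid-like and 18.8% in Car1-GFP cells.

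In the 7a family, Cox7a2l, which encodes a 7a-like protein, made up 44.6% of UMIs in stem-like cells, 42.5% in the Car1-GFP library and 41.8% in NK and innate lymphoid-like cells. It was lowest in neutrophil-like cells (14.1%) and granulocyte-monocyte progenitor-like cells (16.6%), and at 21.6% in erythroid-like cells. Cox7a2 was nearly all of the remainder. The muscle form Cox7a1 had 4 UMIs in the Car1-GFP library and 21 in the marrow library. Cox4i1, Cox7b, Cox8a and Ndufa4 held 99.7% or more of their families' UMIs in both libraries and in every class, and the forms known from lung, testis, muscle or low oxygen (Cox4i2, Cox7b2, Cox8b, Cox8c, Ndufa4l2) were at or near 0.

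The other classes differed from the rest of the marrow in few members, and no class held a larger share of 2-fold members than of 2-fold genes in both directions. In erythroid-like cells 9 members were at least 2-fold higher (background 17.2%) and Cox6a2 was lower (background 22.2%). This lower call, and those of Cox6a2 in other classes below, rest on the plasmacytoid dendritic-like cells in the reference. Besides Cox6b2 and Atp5g1 the higher ones were Ndufaf4 (97.5 CPM in erythroid-like cells, log2 1.73), Atp5s (1.35), Ndufaf1 (1.18), Ndufab1 (1.10), mt-Nd2 (1.08), Uqcr11 (1.07) and Atp5g3 (1.06). Ndufb11, an accessory subunit of complex I, followed Cox6a2 at the lower end with -0.50. The sums were 1.27-fold for nuclear and 1.29-fold for mitochondrially encoded members. Ribosomal protein genes took 31.6% of UMIs in erythroid-like cells, and with them and globin left out of the total 18 members were higher, beside 26.2% of all genes.

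In stem-like cells 4 members were higher (background 15.7%) and 0 lower (background 9.85%). They were the complex I assembly factor genes Ndufaf4 (74.8 CPM, log2 1.17), Ndufaf5 (1.13) and Ndufaf2 (90.8 CPM, 1.08), and Atp5sl (28.5 CPM, 1.10). The nuclear sum was 0.936-fold and the mitochondrial sum 1.19-fold in these cells, and the lowest ratios were those of Ndufaf3 (-0.72) and the accessory subunit Ndufa9 (-0.68), both with intervals that include 0. Granulocyte-monocyte progenitor-like cells had 2 members higher (background 3.93%), Ndufaf6 (20.3 CPM, log2 1.58) and Ndufaf2 (85.3 CPM, 1.23), and Cox6a2 lower (-3.11; background 13%). Their members nevertheless lay mostly above 0, 72 of 83 nuclear and 13 of 13 mitochondrially encoded, beside 4805 of 10429 genes, with a nuclear sum of 1.29-fold and Atp5g1 at 0.88. The lowest after Cox6a2 was Ndufaf7, at -0.72 with an interval that includes 0.

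Monocyte-like cells had Ndufaf7 (1.005) among 2 members higher (background 9.95%) and Cox6a2 (-2.35) lower (background 11.9%), with Atp5c1 (0.76), the central stalk subunit of the ATP synthase, and Ndufa9 (0.70) next and Cox6b2 at -0.80. The other higher member was Cox7a1, which rests on 10 of the 21 UMIs of that gene in the marrow library. Conventional dendritic-like cells had 4 members higher (background 27.5%) and 6 lower (background 9.75%). Among members with enough UMIs, the core complex I subunit Ndufs3 (1.003), the ATP synthase subunit Atp5d (0.78) and Cox7a2l (0.74) led there, and mt-Nd3 (-0.98) and mt-Nd5 (-0.97) were lowest. Basophil or mast-like cells had 4 higher (background 34.5%) and 4 lower (background 8.26%), led by Ndufa1 (0.91), mt-Nd4l (0.62) and Ndufb4 (0.56), with Uqcrfs1, the iron-sulfur subunit of complex III, at -0.78 and Ndufs8 at -0.65. The last 3 of these have intervals that include 0. NK and innate lymphoid-like cells had 4 higher (background 29.6%) and 2 lower (background 9.95%), led by Cox7a2l (0.77), mt-Nd3 (0.67) and Ndufs8 (0.59, interval including 0), with Ndufb3 (-0.95) and Ndufv3 (-0.77) lowest. These last 3 classes held 150 cells or fewer, so a 2-fold ratio there rests on few UMIs. The 3 UMIs set in place of 0 equal 20.5, 29.6 and 24.1 CPM in them, in the order given. A weakly expressed gene without a UMI in the class could thus count as higher. Cox7a1, at 2.53 CPM in the marrow library, had no UMI in any of them and counted as higher by this rule. The counts of higher members and their backgrounds there therefore include absent genes.

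Plasmacytoid dendritic-like cells had 2 members higher (background 14.7%), Cox6a2 and Atp5sl (48.5 CPM, log2 2.01), and 2 lower (background 10.5%), among them Cox6b2 (25.2 CPM, -1.42). Ndufb2, an accessory subunit of complex I, was at -0.62. All 13 mitochondrially encoded genes lay above 0, beside 6260 of 10429 genes, from mt-Nd6 (0.11) to mt-Nd2 (585 CPM, log2 0.77), and their sum was 1.48-fold while the nuclear sum was 1.04-fold.

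Between the libraries, the core of complex I and the large subunits of complexes III and V were higher in Car1-GFP cells. Of 96 members, 37 stood 2-fold or more higher in Car1-GFP cells than in the marrow library and 8 stood lower, against 22.2% and 32.7% of all 12076 genes measured. The members' median log2 ratio was 0.69, beside -0.23 over all genes. Nuclear members together took 3.83% of UMIs in the Car1-GFP library and 2.72% in the marrow library, and mitochondrially encoded members took 3.45% in the Car1-GFP library and 2.19% in the marrow library. The scale moved these values: edgeR's TMM factors added 0.22 to every log2 ratio, which gave 47 members higher and 7 lower.

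Of the 7 nuclear core subunits of complex I, which carry the redox centres, 6 were higher and 0 lower, with a summed level 2.78-fold. Ndufv1, which binds NADH, was at 206 CPM in Car1-GFP cells, against 40.1 CPM in the marrow library (log2 2.36). Ndufs3 was at 219 CPM in Car1-GFP cells, against 62.5 CPM in the marrow library (1.81). The 29 accessory subunits were mixed, with 8 higher, 2 lower and a summed level 1.19-fold. Ndufa12 (525 CPM in Car1-GFP cells, 153 CPM in marrow; 1.78) and Ndufa9 (148 CPM in Car1-GFP cells, 39.0 CPM in marrow; 1.93) led them. Ndufa3 was at 189 CPM in Car1-GFP cells, against 708 CPM in the marrow library (-1.91), and Ndufa1 at 146 CPM in Car1-GFP cells and 360 CPM in marrow (-1.30). Ndufv3 (-0.45) and Ndufb7 (-0.43) were also among the 12 lowest, though within 2-fold. Of the 7 assembly factors 5 were higher, among them Ndufaf6 (40.9 CPM in Car1-GFP cells, 9.51 CPM in marrow; 4.30-fold), Ndufaf1 (35.9 CPM in Car1-GFP cells, 8.55 CPM in marrow; 2.07) and Ndufaf4 (117 CPM in Car1-GFP cells, 36.0 CPM in marrow; 1.70).

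In complex III, which passes electrons to cytochrome c, 3 of 8 nuclear subunits were higher, and the core proteins led: Uqcrc2 was at 221 CPM in Car1-GFP cells, against 44.1 CPM in the marrow library (log2 2.33), and Uqcrc1 at 440 CPM in Car1-GFP cells and 119 CPM in marrow (1.89). In complex IV 3 of 15 were higher and 2 lower, the 2 being the muscle forms Cox6a2, at 3 UMIs in Car1-GFP cells and 878 in marrow (-10.56, -12.84 to -9.01), and Cox7a1 (-4.76). Both reached the limit of 20 UMIs only through the marrow library, where Cox7a1 had 21 UMIs, against 4 in Car1-GFP cells. Their place among the lower genes was thus tied to that limit and is no finding. In complex V 8 of 15 were higher and 1 lower. Atp5b, the catalytic beta subunit, was at 1367 CPM in Car1-GFP cells, against 301 CPM in the marrow library (2.18), and Atp5d, of the central stalk, at 665 CPM in Car1-GFP cells and 190 CPM in marrow (1.81). At the low end stood 2 of its small subunits, Atp5k at 366 CPM in Car1-GFP cells and 780 CPM in marrow (-1.09) and Atp5e at 506 CPM in Car1-GFP cells and 885 CPM in marrow (-0.81).

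**Figure D1:**
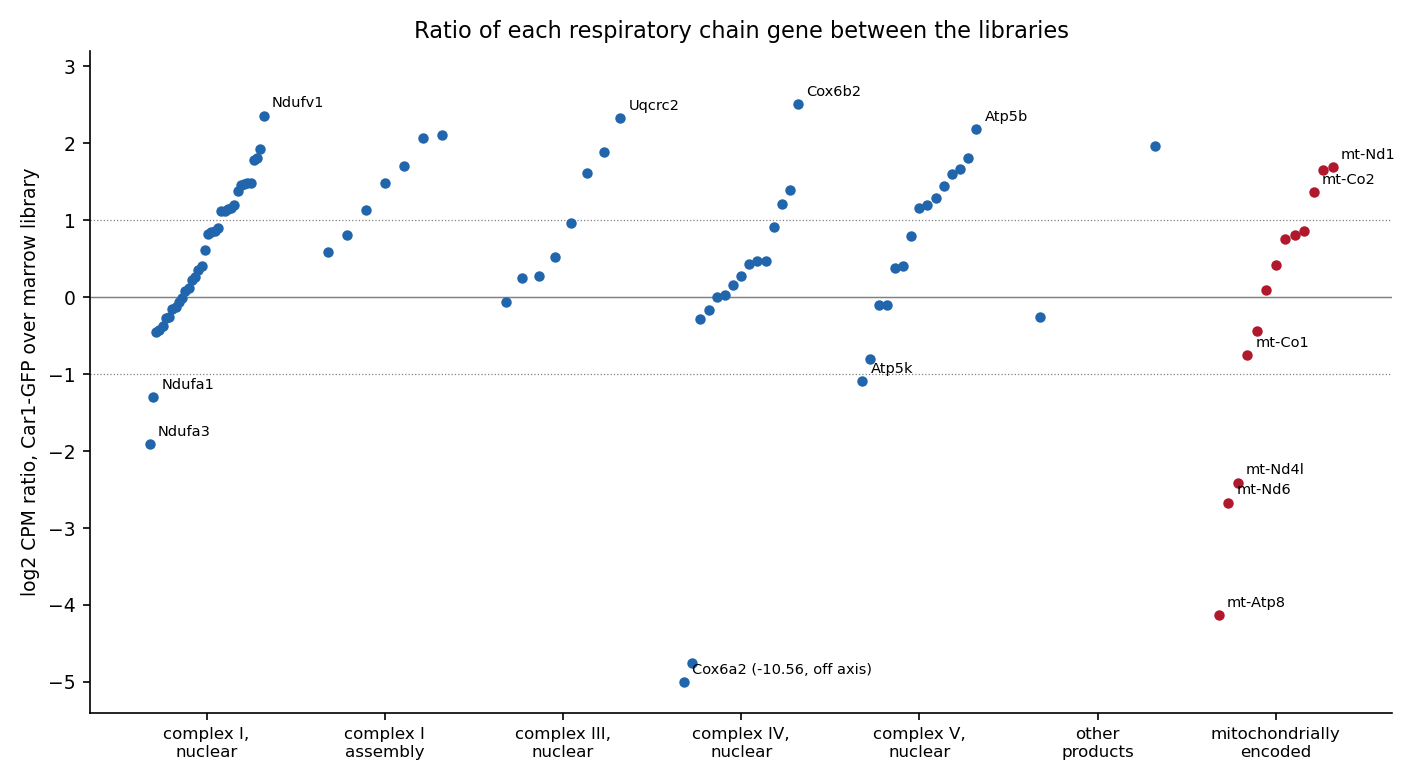
Log2 ratio of CPM in the Car1-GFP library over the marrow library (vertical axis) for each member, 1 point per gene, by group of products, with dashed lines at 2-fold. Core complex I subunits and assembly factors lie above 0, and mitochondrially encoded genes spread on both sides; Cox6a2, at -10.56, is drawn at the foot of the axis.

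The 13 mitochondrially encoded genes, which are transcribed as long precursors and cut apart, did not move together between the libraries. In 3 the Car1-GFP cells stood 2-fold or more above the marrow library: mt-Nd1 (4138 CPM in Car1-GFP cells, 1284 CPM in marrow; log2 1.69), mt-Atp6 (10016 CPM in Car1-GFP cells, 3194 CPM in marrow; 1.65) and mt-Co2 (3108 CPM in Car1-GFP cells, 1208 CPM in marrow; 1.36). In 3 they stood as far below or farther: mt-Atp8 (28.5 CPM in Car1-GFP cells, 501 CPM in marrow; -4.13), mt-Nd6 (6.24 CPM in Car1-GFP cells, 39.7 CPM in marrow; -2.67) and mt-Nd4l (54.8 CPM in Car1-GFP cells, 292 CPM in marrow; -2.41). The other 7 ran from mt-Co1 (-0.75) and mt-Nd5 (-0.44) over mt-Nd3 (0.10), mt-Co3 (0.41), mt-Nd2 (0.76) and mt-Nd4 (0.80) to mt-Cytb (0.85).

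The lower 3 were looked up by position. On mm10, mt-Atp8 (chrM:7766-7969) overlaps mt-Atp6 (chrM:7927-8607) by 43 bases on the same transcript, and mt-Nd4l (chrM:9877-10173) overlaps mt-Nd4 (chrM:10167-11544) by 7 bases. mt-Nd6 (chrM:13552-14070) is the 1 mitochondrially encoded member on the minus strand. Among marrow classes, mt-Atp8 went along with the others, from 198 CPM in neutrophil-like to 896 CPM in erythroid-like cells (log2 0.97 over other marrow cells). The log2 ratio of mt-Atp8 between the libraries stayed between -4.13 and -3.83 in every alternative run. The partners mt-Atp6 and mt-Nd4 were not lower, and the part of position in these ratios was not tested.

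Transcript length moved with the ratio between the libraries. Over 83 nuclear members, Spearman's correlation of annotated transcript length with the log2 ratio was 0.60, while over 11058 other measured genes it was -0.32; genes share their libraries and are not replicates. Among the shortest nuclear members (371 to 659 bases) the median log2 ratio was 0.08 with 4 of 29 higher and 4 lower. In the middle (678 to 1082 bases) it was 0.70 with 8 of 26 higher and 1 lower, and in the longest (1110 to 3632 bases) 1.49 with 22 of 28 higher and 0 lower. Other measured genes, split near the same lengths, had medians of -0.18 (226 genes of 234 to 659 bases), 0.63 (782 of 660 to 1100 bases) and -0.27 (10050 of 1101 bases or longer, which reaches far beyond the longest member). Within the marrow library, whose classes share a preparation but differ in UMIs per cell, the correlation was 0.21 for erythroid-like over other cells and -0.27 for neutrophil-like over other cells. Its part in the ratios of the single genes above was not tested.

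**Figure D2:**
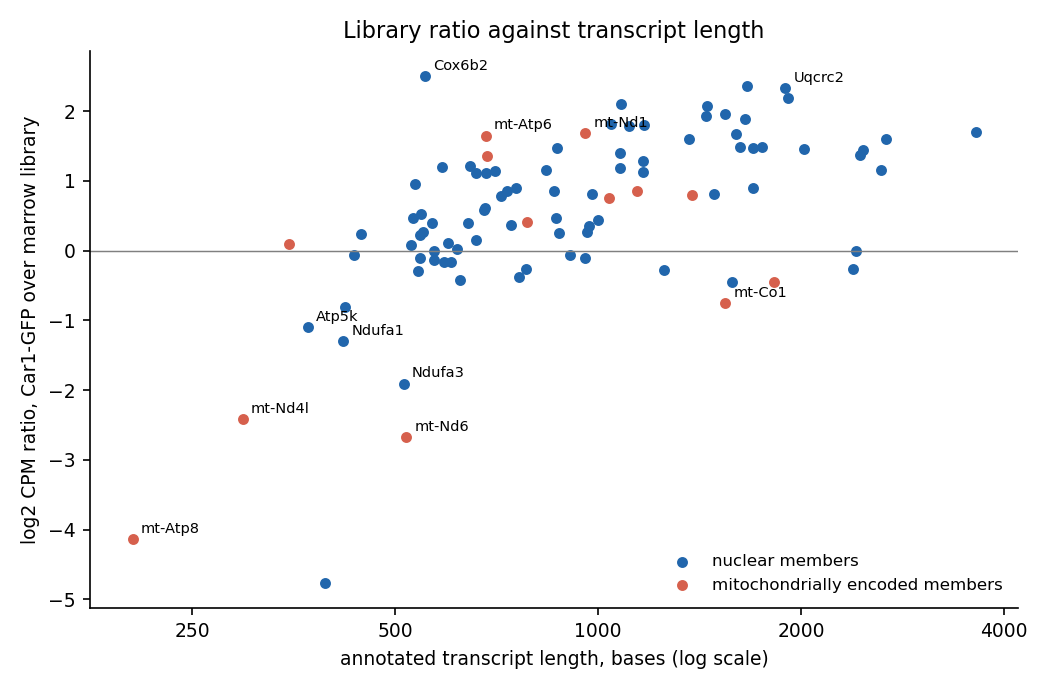
Log2 ratio of CPM in the Car1-GFP library over the marrow library (vertical axis) against annotated transcript length in bases (horizontal axis, log scale) for nuclear members, 1 point per gene. The points climb with length, from a median of 0.08 among the shortest to 1.49 among the longest.

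The Car1-GFP library was also set beside the 269 erythroid-like marrow cells, a group of like lineage. Of 94 members measured, 24 stood 2-fold or more higher in Car1-GFP cells (background 12.4%) and 6 lower (background 32.0%), and the members' median log2 ratio was 0.27, beside -0.39 over all genes. The nuclear sum was 1.14-fold and the mitochondrial sum 1.25-fold, and core complex I subunits were 2.25-fold in sum, with 5 of 7 higher. The lower 6 were mt-Atp8 (-4.97), mt-Nd6 (-3.19), mt-Nd4l (-2.73), Ndufa3 (-1.52), Atp5k (-1.35) and Ndufa1 (-1.20).

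Cells of like depth gave other counts. In cells of 4700 to 7214.4 UMIs, 480 in the Car1-GFP library (median 5757) and 43 erythroid-like (median 5591), 13 members were higher and 12 lower, where 17.6% and 21.8% of all genes were. Nuclear members then took 3.07% of UMIs in Car1-GFP cells and 3.45% in erythroid-like cells, so the direction of the nuclear sum turned, at a log2 ratio of -0.17. Mitochondrially encoded members took 3.53% in Car1-GFP cells and 2.73% in erythroid-like cells, a log2 ratio of 0.37. Of the genes named so far, mt-Atp8 (-5.35), mt-Nd6 (-3.15), mt-Nd4l (-3.05), Atp5k (-2.02) and Ndufa3 (-1.62) were lower at this depth too, and Ndufv1 (1.70), Cox7a2l (1.64) and mt-Atp6 (1.20) higher, while Cox6b2 stood at -0.03, against 0.49 over all cells. Globin took 2.77% of UMIs in these Car1-GFP cells and 0.147% in these erythroid-like cells, so stage was not matched.

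Among Car1-GFP cells themselves, nuclear members took a larger share in deeper cells. Over 5 bins of 480 cells ordered by UMIs (medians 5757, 9305.5, 15512.5, 22943 and 33610.5 UMIs), they took 3.07, 3.38, 3.71, 3.93 and 4.06% of UMIs, and mitochondrially encoded members 3.53, 3.51, 3.53, 3.54 and 3.33%. Mitochondrial UMIs per nuclear UMI were therefore 1.15 in the shallowest bin and 0.82 in the deepest. In the deepest over the shallowest bin, 75 of 81 nuclear members lay above 0, beside 5020 of 10063 genes, and 0 of 94 members passed 2-fold in either direction (background 4.10% higher and 12.1% lower). Uqcrq, a small complex III subunit, and Ndufab1, the acyl carrier subunit of complex I, led at 0.73 each, while Cox7a2l was at 476 CPM in the deepest and 659 CPM in the shallowest bin (-0.47). Over 2400 cells of the library, Spearman's correlation of UMIs with the nuclear share was 0.70 and with the mitochondrial share 0.07, and that of the ribosomal protein share with the nuclear share was -0.51.

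The marrow classes leaned the same way, with nuclear members at a higher share in the cells above the class's median of UMIs in 9 of 9 classes. The shares were 3.48% above and 3.00% below the median in erythroid-like cells, 1.89% above and 1.59% below it in neutrophil-like cells, and 2.82% above and 2.81% below it in plasmacytoid dendritic-like cells. Intervals above and below the median overlapped in plasmacytoid dendritic-like, conventional dendritic-like and basophil or mast-like cells.

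Along the globin share, which rises as red cell precursors mature, the sums in Car1-GFP cells stood at 1.01-fold for nuclear and 1.07-fold for mitochondrially encoded members in the highest over the lowest bin. With the 99 cells of 5% or more globin in place of the highest bin both turned below 0, at log2 ratios of -0.16 for nuclear and -0.11 for mitochondrially encoded members. Globin stayed in the total there. Without it, nuclear members took 3.97% at 5 to 20% globin and 4.01% from 20%, against 3.83% below 0.75%. Mitochondrially encoded members then took 3.50 and 4.30%, against 3.45%. Over 5 bins of 480 cells with median globin shares of 0.469, 0.520, 0.565, 0.639 and 2.16% of UMIs, nuclear members took 3.83, 3.86, 3.80, 3.74 and 3.88%, and mitochondrially encoded members 3.33, 3.39, 3.47, 3.56 and 3.55%. Of 94 members, 0 passed 2-fold in either direction between the highest and lowest bin (background 4.64% higher and 9.66% lower). edgeR's TMM factors added 0.16 to every log2 ratio between these bins, and the sums above are given without them. The median cell of the 5 bins held 16008, 18577.5, 14958, 10189 and 16943 UMIs, so depth was not matched along globin. The axis itself showed the maturing genes: Alas2, the erythroid heme synthesis enzyme gene, was at 95.02 CPM in the highest and 10.2 CPM in the lowest bin, and Kit at 13.9 CPM in the highest and 52.1 CPM in the lowest bin. The first 4 bins differ little in globin, so most of the range lies in the last.

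The members with the lowest ratios were assembly factors and Atp5g2. All 7 complex I assembly factors lay below 0, with a sum of 0.770-fold, where 6340 of 9917 genes lay below 0 and the median over all genes was -0.16. Ndufaf6 was at 28.8 CPM in the highest and 48.6 CPM in the lowest bin (-0.76), Ndufaf4 at 80.6 CPM in the highest and 127 CPM in the lowest (-0.65), and Ndufaf5 at -0.47. Atp5g2 was at 545 CPM in the highest and 837 CPM in the lowest bin (-0.62, -0.67 to -0.57), Atp5g1 at 1217 CPM in the highest and 1437 CPM in the lowest (-0.24), and Atp5g3 at 518 CPM in the highest and 501 CPM in the lowest. As shares of subunit c UMIs, Atp5g2 was 23.9% in the highest and 30.2% in the lowest bin, and Atp5g3 22.71% in the highest and 18.05% in the lowest. mt-Nd4l (-0.44), Atp5sl (-0.41) and Ndufa1 (-0.28) were also lower. mt-Nd6, at 32 UMIs in the highest and 63 in the lowest bin, was under the UMI limit of the naming rule.

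At the upper end stood Ndufb9 (709 CPM in the highest and 568 CPM in the lowest bin; 0.32), mt-Co1 (4198 CPM in the highest, 3399 CPM in the lowest; 0.30), Ndufb7 (0.26), Atp5h (0.26), Cox6a1 (0.24), Ndufs1 (0.22), Atp5j2 (0.19) and Cox7a2 (0.18). Cox6b2 made up 29.5% of its pair in the highest bin and 32.0% in the lowest. In the 99 cells with 5% or more globin, with globin kept in the total, 5 members passed 2-fold lower than the lowest bin and 0 higher. They were Ndufaf4 (-1.17), Ndufaf6 (-1.41), Atp5g2 (-1.21), Atp5sl (-2.35) and mt-Nd6 (-1.17), where 22.2% of all genes measured were lower.

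The sums were also followed as shares of UMIs other than globin. In cells below 0.75% globin, at 0.75 to 2%, 2 to 5%, 5 to 20% and from 20%, nuclear members took 3.83, 4.02, 4.09, 3.97 and 4.01%, and mitochondrially encoded members 3.45, 3.65, 3.80, 3.50 and 4.30%. Those ranges held 1920, 229, 152, 69 and 30 cells, and the median cell of the last had 5998.5 UMIs against 15033 in the first.

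**Figure D3:**
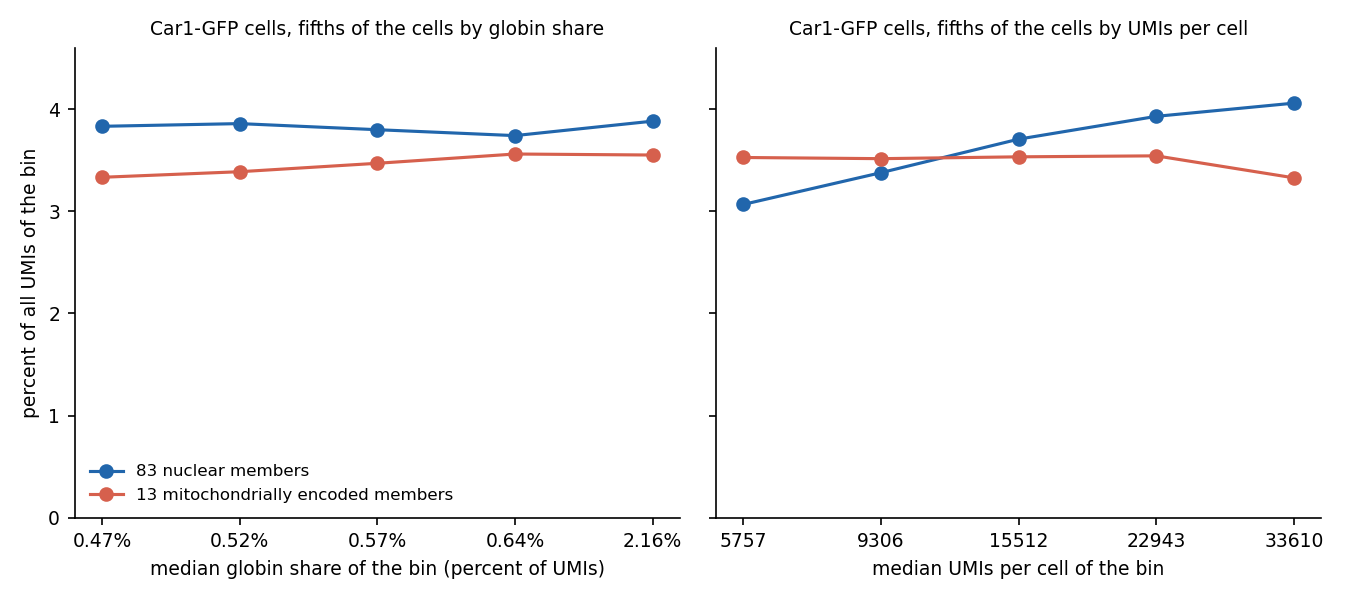
Share of all UMIs (vertical axis, percent) of nuclear and mitochondrially encoded members in Car1-GFP cells in 5 bins of 480 cells ordered by globin share (left, low to high) and by UMIs per cell (right, low to high). The lines run nearly level over globin, while over depth the nuclear share climbs from 3.07 to 4.06%.

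The limit on mitochondrial UMIs bears on this axis, because barcodes with 10% or more were left out. They numbered 122 in the Car1-GFP library, with 11, 8, 27, 46 and 30 in the 5 globin bins, and their mitochondrial share was 14.4% and their nuclear share 3.54%. With them kept, mitochondrial shares along globin were 3.45, 3.44, 3.68, 4.03 and 3.76%.

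In the erythroid-like cells of the marrow library the globin axis started lower. The 3 bins of 90, 90 and 89 cells had median globin shares of 0, 0.224 and 6.47% (0.0148, 0.325 and 9.33% of their summed UMIs), nuclear members at 3.38, 3.49 and 3.08%, and mitochondrially encoded members at 2.57, 2.88 and 2.96%. Of 87 members 0 were 2-fold higher and 5 lower (background 10.7% and 17.9%), the 5 being Cox6b2, Ndufa8, Ndufs3, Ndufaf2 and Ndufaf4. Cox6b2 was at 348, 216 and 147 CPM (-1.24, -1.93 to -0.60) and Atp5g1 at 1338, 1344 and 798 CPM (-0.75). Atp5g2 (-0.74), Cox5a (-0.84), mt-Nd2 (-0.88), Cox7b (-0.68), Ndufa12 (-0.73) and mt-Nd3 (-0.64) were lower in the highest bin by less than 2-fold. Atp5h (0.65), mt-Co1 (0.47), Ndufb9 (0.44), Ndufb10 (0.44), Ndufb7 (0.42), Uqcrh (0.40), Cox6a1 (0.39) and mt-Co3 (0.37) were above 0. With globin left out of the total, 2 members were lower and the nuclear sum stood at a log2 ratio of 0.01. S100a8 was at 8433, 9124 and 8829 CPM in the 3 bins; its part in these values was not tested.

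Genes that work with the members were read from other lists. Mitochondrial ribosomal proteins stood out, with 60 of 77 measured 2-fold or more higher in Car1-GFP cells than in the marrow library and 2 lower. Mrps18b (140 CPM in Car1-GFP cells, 15.5 CPM in marrow, log2 3.17), Mrps22 (2.85) and Mrpl46 (2.52) led them. Over marrow erythroid-like cells 25 of 77 were higher and 2 lower, where 12.4% and 32.0% of all genes were. Their median log2 ratio was 0.72 there, against 1.41 over the marrow library. In complex II, 3 of 4 were higher: Sdhc (161 CPM in Car1-GFP cells, 44.7 CPM in marrow; 1.85), Sdhd (1.73) and Sdhb (1.03). Among 8 genes of cytochrome c and electron transfer 5 were higher and 0 lower, with Cyc1, the cytochrome c1 gene of complex III, at 432 CPM in Car1-GFP cells, against 77.0 CPM in the marrow library (2.49), Coq7 at 2.24 and Dhodh at 2.22. Of 4 carriers 3 were higher, Slc25a3, Slc25a5 and Slc25a4 (1.83, 1.80 and 1.44), which bring phosphate and ADP to the ATP synthase.

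Assembly and control genes were mixed. Of 17 complex IV assembly genes 6 were higher and 3 lower, with Taco1 (2.65), Sco2 (2.46) and Cox11 (2.18) in front. Complex III assembly had 2 of 6 higher, with Uqcc1 (1.19), Bcs1l (1.15) and Uqcc2 (0.91), and the complex V list 4 of 6, with Tmem70 (1.97), Atpif1 (2423 CPM in Car1-GFP cells, 783 CPM in marrow; 1.63) and Atpaf2 (1.54). Mitochondrial transcription and replication had 4 of 14 higher and 1 lower, with Tefm (2.05), Tfb1m (1.52) and Tfam (1.49). The 7 nuclear regulators had 0 higher and 1 lower: Yy1 was at 42.1 CPM in Car1-GFP cells and 89.8 CPM in marrow (-1.09), Esrra at -0.98 and Ppargc1b at 0.90. Each count over the marrow library is read against the same 22.2% higher and 32.7% lower of all genes. Over marrow erythroid-like cells 12.4% and 32.0% of all genes were. There complex II had 2 of 4 higher, cytochrome c and electron transfer 5 of 8 and the carriers 3 of 4. Complex IV assembly had 2 of 17 higher and 3 lower, and complex III assembly 0 of 6 higher and 1 lower. The complex V list had 2 of 6 higher and 1 lower. Transcription and replication had 2 of 14 higher and 1 lower, and the regulators 0 of 7 higher and 2 lower.

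Among the marrow classes, mitochondrial ribosomal proteins had 23 of 77 higher in erythroid-like cells (17.2% of all genes) and 56 lower in neutrophil-like cells (45.9% of all genes). Along globin, 0 passed 2-fold in Car1-GFP cells (4.64% of all genes higher and 9.66% lower), and 15 of 60 were lower in the highest bin of the marrow erythroid-like cells (17.9% of all genes).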

How the data were processed

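The deposited matrices hold whole UMI counts per gene and barcode, not normalized by the authors. Cell Ranger 2.1, Seurat 2 and the build mm10 are named, with no role given, per the submitters' processing notes. The limit on mitochondrial UMIs, 10% of a barcode, removed some barcodes (122 Car1-GFP, 19 marrow). Scrublet called 9 Car1-GFP doublets, below the 0.5% required, so none was removed, and 171 marrow doublets were removed. Marrow cells were clustered (scanpy 1.11.5, Leiden resolution 1, 2000 variable genes, 30 components, members left out) and named from fixed markers; a mixed cluster was sub-clustered by a rule set after the data were seen. UMIs were summed per library, class or bin. A ratio of CPM used summed counts, with 3 UMIs in place of 0, and a gene was measured with 20 UMIs in the pair. Called means 2-fold. Exact 95% binomial intervals cover counting error only. edgeR 4.0.16 and DESeq2 1.42.0 gave scale factors and no test. Transcript lengths and coordinates came from GENCODE M21; 4 nuclear members overlap another gene of the table on the same strand, whose UMIs are few. The text names the 12 highest and lowest members between the libraries at 20 CPM or more, the 3 highest and 2 lowest per class, the 8 at each globin end with 100 UMIs, every mitochondrial gene and every paralog. The members and lists were chosen with earlier results of these data known. Counts were also simulated with counting error only, and 4-fold changes were set in genes of at least 100 UMIs. Between the libraries, the ratios recovered 100 of 100 raised and 100 of 100 lowered genes among 12033. Of the unchanged genes 1.83% passed 2-fold. Changes of that size were sure to pass 2-fold, so this checks the calculation and not the spread between samples or cells.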

Additional observations from a re-analysis of the deposited data

How the results depend on the processing

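No paired analysis was possible because each group holds 1 library. No value past 2-fold changed sign in the alternatives run. Of the values for single genes and sums, 1104 stayed within the interval of the main value, which covers counting error only, and 435 moved. The log2 ratio of summed nuclear members in Car1-GFP over erythroid-like cells was -0.17 at a matched range of UMIs per cell, against 0.19 over all cells. Counts at 2-fold that moved over 1.5 times were as follows, and the cause was not tested. With ribosomal protein and globin UMIs left out of the total, 18 members were higher in erythroid-like cells (9 before; 26.2% of all genes), 4 higher in granulocyte-monocyte progenitor-like cells (2 before; 6.51% of all genes) and 73 lower in neutrophil-like cells (48 before; 60.2% of all genes). With cells of at least 1000 UMIs, stem-like cells had 2 higher (4 before) and 1 lower (0 before), granulocyte-monocyte progenitor-like cells 1 higher and 2 lower (2 and 1 before), monocyte-like cells 1 higher and 2 lower (2 and 1 before) and plasmacytoid dendritic-like cells 1 lower (2 before), and Cox6a2 took 54.2% of its pair in the last (68.4% before). At Leiden resolution 2, stem-like cells had 2 higher and monocyte-like cells 1 higher and 2 lower. Monocyte-like cells had 1 higher with another seed and 2 lower with the members kept in clustering. Without sub-clustering 2 members were lower in erythroid-like cells (1 before). Along globin in Car1-GFP cells, 4 were lower with 10 bins (15.3% of all genes) and 5 in cells of 5% or more (22.2% of all genes, 0 before). In the latter the summed log2 ratios, with globin kept in the total, were -0.16 for nuclear and -0.11 for mitochondrially encoded members (0.02 and 0.09 before). In marrow erythroid-like cells, 2 were lower with 2 bins or with globin left out (5 before, 10.3% and 14.6% of all genes). At a matched range of UMIs per cell, 13 members were higher and 12 lower in Car1-GFP than erythroid-like cells (24 and 6 before; 17.6% and 21.8% of all genes). Mitochondrial per nuclear UMIs in the Car1-GFP library were 0.954 with no mitochondrial limit and 0.935 as a median over cells (0.902 before), and in the marrow library 0.814 and, over cells of at least 1000 UMIs, 0.754 (0.806 before). With TMM factors the transcription and replication list had 0 lower (1 before) and the regulators 1 higher and 0 lower (0 and 1 before). Not run for want of 50 cells were conventional dendritic, basophil or mast and NK classes at 1000 UMIs, and the stem class without sub-clustering. Depth limits the marrow classes, where a member at 20 CPM rests on few UMIs.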
